A study of Mus musculus with 6 samples.

Results

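The genes described here are the 201 mouse genes named Zfp followed by digits only whose RNA was clearly above the dim end of the array in embryonic stem (ES) cells. They were selected on the mean level itself. A gene had to be read by a probe set with 1 gene symbol, its brightest probe set had to average at least 6 on the log2 scale over the 6 arrays, and Zfp57, Zfp42, Zfp281 and Zfp445 were left out by name. This kept 201 of 301 Zfp genes measured at any level, beside 9561 genes of every kind, called the expressed genes here, that passed the same minimum among 18193. The levels below are therefore a description. The genes nearest the minimum were Zfp276 (6.05), Zfp942 (6.06) and Zfp329 (6.08) inside it and Zfp213 (5.99), Zfp2 (5.97) and Zfp248 (5.97) outside it.

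All 6 arrays came from mouse ES cells of the line EBRTcH3, kept in serum with leukemia inhibitory factor, into which the human GTF2I coding sequence with a 3xFLAG tag had been placed at ROSA26 under a promoter that tetracycline holds off. GTF2I, a gene of the Williams-Beuren syndrome deletion, encodes the transcription factor TFII-I. Each of the clones A1, B3 and C6, which are separate recombinant clones of that line, gave 1 uninduced array (grown with tetracycline, 0 h) and 1 induced array (24 h after it was withdrawn), so each group held 3 arrays and every clone carried the transgene. The titles name GTF2I, whereas a characteristics field names GTF2IRD2, and the titles were followed. Induction and withdrawal of tetracycline cannot be told apart in this design, and neither the level of the transgene nor its protein was used here.

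Zfp genes encode zinc finger proteins, most of them of the C2H2 kind, in which a cysteine and histidine pair hold a zinc ion in each finger and a row of fingers reads DNA. Many also carry a KRAB box, which recruits the corepressor TRIM28 and with it the histone methyltransferase SETDB1 and heterochromatin proteins, and in ES cells such factors are known for silencing retroelements and imprinted regions. Others have no KRAB box and act as activators, partners of signalling factors, RNA-binding proteins or helpers of ribosome assembly, so the shared name is one of a fold and not of a task.

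The arrays themselves were alike, with correlations between 0.991 and 0.996 over all probe sets and array medians between 5.06 and 5.11. The labelled cell type fitted its markers: 8 of 8 ES cell markers had means between 10.12 and 14.20. Of the markers of other lineages measured, the fibroblast list had 1 of 6 genes at a mean of at least 6, the endoderm list 0 of 5, the mesoderm list 2 of 3, the neural list 3 of 4 and the trophectoderm list 0 of 3. None of these markers passed the comparison of induced with uninduced arrays (0 also at an unadjusted p under 0.05), and Esrrb, an ES cell factor, was the 1 gene among them whose change in A1 differed from that in B3 and C6 (0.51, -0.36 and -0.65 in A1, B3 and C6; limma, adjusted p = 0.0347). Clone A1 stood apart from the others. Across the expressed genes, the induced minus uninduced change in A1 correlated at r = -0.69 with that in B3 and at -0.76 with that in C6, whereas B3 and C6 correlated at 0.69. These are descriptions across genes, which are not independent replicates. The labels were followed throughout, but these values cannot tell a different response of A1 from an exchange of its uninduced and induced arrays, which would turn the sign of every change in A1 given below. The tests of induction are therefore given with A1 and without it, while the comparison of levels between clones and the counts of directions use all 3 clones.

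The mean level of the Zfp genes ran from 6.05 to 12.03, with a median of 7.39 and quartiles of 6.74 and 8.54. The median of the expressed genes was 8.34, and 71 of the Zfp genes lay under 7, 71 at 8 or more and 8 at 10 or more. A level of a probe set also depends on how well its probes bind, so these ranks order brightness and not RNA molecules. The brightest probe set was of the kind marked for cross-hybridization (x) in 12 genes and for several transcripts or family members (s) in 8, which can pick up RNA of a related gene. Over the 6 arrays a gene's highest and lowest values differed by a median of 0.50, from 0.13 to 1.80, and the range was over 1 in 11 genes.

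**Figure D1:**
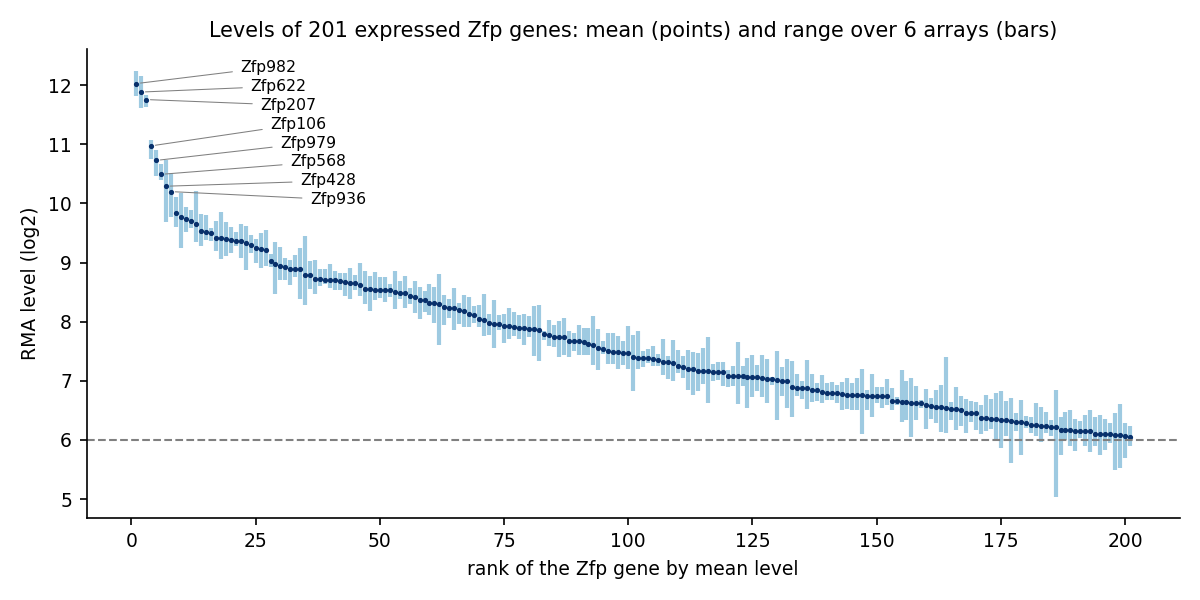
Mean RMA level (log2) of each of the 201 Zfp genes as points, ranked from the brightest, with bars from its lowest to its highest value over the 6 arrays and the minimum of 6 as a dashed line. The 8 labelled genes averaged 10 or more, and most genes lay between the quartiles of 6.74 and 8.54.

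Among the 8 brightest, genes of RNA metabolism and ribosome assembly stood beside KRAB factors. Zfp982 was brightest, with 11.86, 12.12 and 11.89 in the uninduced arrays of A1, B3 and C6 and 11.81, 12.25 and 12.23 in the induced ones. Its probe set is of the x kind, and the induced arrays of B3 and C6 were its highest. Zfp622, a factor of ribosomal large subunit assembly, had 12.10, 11.62 and 11.67 uninduced and 11.61, 12.14 and 12.16 induced, so its high arrays were the uninduced array of A1 and the induced arrays of B3 and C6. Zfp207, which acts in spindle assembly and splicing, gave 11.83, 11.71 and 11.80 uninduced and 11.79, 11.63 and 11.77 induced, the tightest of these genes. Zfp106, an RNA-binding protein needed in muscle and motor neurons, averaged 10.97 and ranged from 10.75 to 11.07. Zfp979 averaged 10.73, Zfp428 10.29 and Zfp936 10.20. Zfp568, a KRAB factor known for silencing a placental transcript of Igf2, had 10.40, 10.39 and 10.49 uninduced and 10.45, 10.55 and 10.66 induced. It was higher after induction in all 3 clones, by 0.04, 0.16 and 0.17, which did not pass the test (limma, adjusted p = 1.00).

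Comparing the 3 induced with the 3 uninduced arrays asks which Zfp genes change with induction and tetracycline withdrawal together, whatever the clone. In limma over all 45037 probe sets, 0 of 201 Zfp genes passed an adjusted p of 0.05, as did 0% of all probe sets. At an unadjusted p under 0.05 there was 1 Zfp gene (0.498%) beside 436 probe sets in all (0.968%), and the methods' t-test also called 0 after adjustment, with 1 at an unadjusted p under 0.05. The estimates ran from -0.44 to 0.34 with a median of 0.02, and the 95% interval reached a median of 0.34 to either side. This interval is not adjusted for the number of probe sets. Even the largest estimates did not pass, so it understates the change that would be needed with 3 arrays a group. With A1 left out, 0 genes passed in a fit without the clone and 11 in a fit with the clone as a block, which is described further on. In whole cells a lower level can mean fewer cells with the RNA or less RNA per cell, and these cannot be told apart.

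The induced arrays all lay above the uninduced ones in 3 Zfp genes (1.49%, where 0.492% of the expressed genes did so) and all below in 1 (0.498%, against 0.596%). Zfp942 was 6.14, 5.69 and 5.88 uninduced and 6.19, 6.28 and 6.21 induced. The mean of its uninduced arrays alone lay under 6, so Zfp942 is a member through its higher induced arrays and is only described here. It is 1 of the 3 genes counted above and the gene at an unadjusted p under 0.05, so the minimum level helped to set both counts. Its difference was 0.32, which did not pass after adjustment, with changes of 0.04, 0.59 and 0.33 in A1, B3 and C6. Zfp46 was the most even across clones, at 7.44, 7.54 and 7.68 uninduced and 7.68, 7.72 and 7.94 induced, a difference of 0.23 ± 0.11 (SE, n = 3 arrays a group; limma, adjusted p = 1.00). Its clone changes of 0.24, 0.18 and 0.27 had 1 direction, but the lowest induced and the highest uninduced value were both 7.68 after rounding. Zfp712, read by a probe set of the x kind, went from 6.26, 6.09 and 6.07 to 6.29, 6.28 and 6.35, and Zfp493 lay lower after induction, from 6.65, 6.67 and 6.65 to 6.54, 6.58 and 6.62. Neither passed (limma, adjusted p = 1.00 for both).

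In all, 24 of 201 Zfp genes (11.9%) changed in the same direction in all 3 clones, where 11.3% of the expressed genes did. Beside those above, Zfp959 was among the smallest p values in the higher direction, with changes of 0.03, 0.32 and 0.29. In the lower direction Zfp36, which encodes tristetraprolin, a protein that speeds decay of AU-rich messenger RNA, changed by -0.10, -0.34 and -0.27. Zfp61 changed by -0.23, -0.07 and -0.38, Zfp870 by -0.29, -0.14 and -0.09, and Zfp276 by -0.06, -0.07 and -0.19. None of these passed the limma test (adjusted p = 1.00 in each), and in Zfp36 both arrays of A1 (6.49 and 6.39) lay below all arrays of B3 and C6 (6.95 to 7.34), a difference between clones that missed the threshold too (limma F test, adjusted p = 0.0704).

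The clones moved in different directions for most of the Zfp genes. The change in A1 was opposite to both other clones in 117 of 201 (58.2%), near the 60.8% of the expressed genes. The direction within that share was uneven. In 83 Zfp genes (41.3%) A1 went down while B3 and C6 went up, where 30.8% of the expressed genes did, and in 34 (16.9%) A1 went up while B3 and C6 went down, where 30% of them did. B3 stood against both others in 20 Zfp genes and C6 in 39.

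Clone by clone, 72 Zfp genes (35.8%) were higher in the induced array of A1, 132 (65.7%) in that of B3 and 117 (58.2%) in that of C6. The same shares of the expressed genes were 48.5%, 52.3% and 48%. The median change of the Zfp genes was -0.07, 0.10 and 0.08 in A1, B3 and C6, beside -0.01, 0.01 and -0.01 over the expressed genes. These medians are small against a single gene's spread: the 10th and 90th percentiles of the Zfp genes were -0.31 and 0.24 in A1, -0.23 and 0.31 in B3 and -0.36 and 0.34 in C6. Each clone gave 1 array per state, so a clone's median has no replicate of its own.

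**Figure D2:**
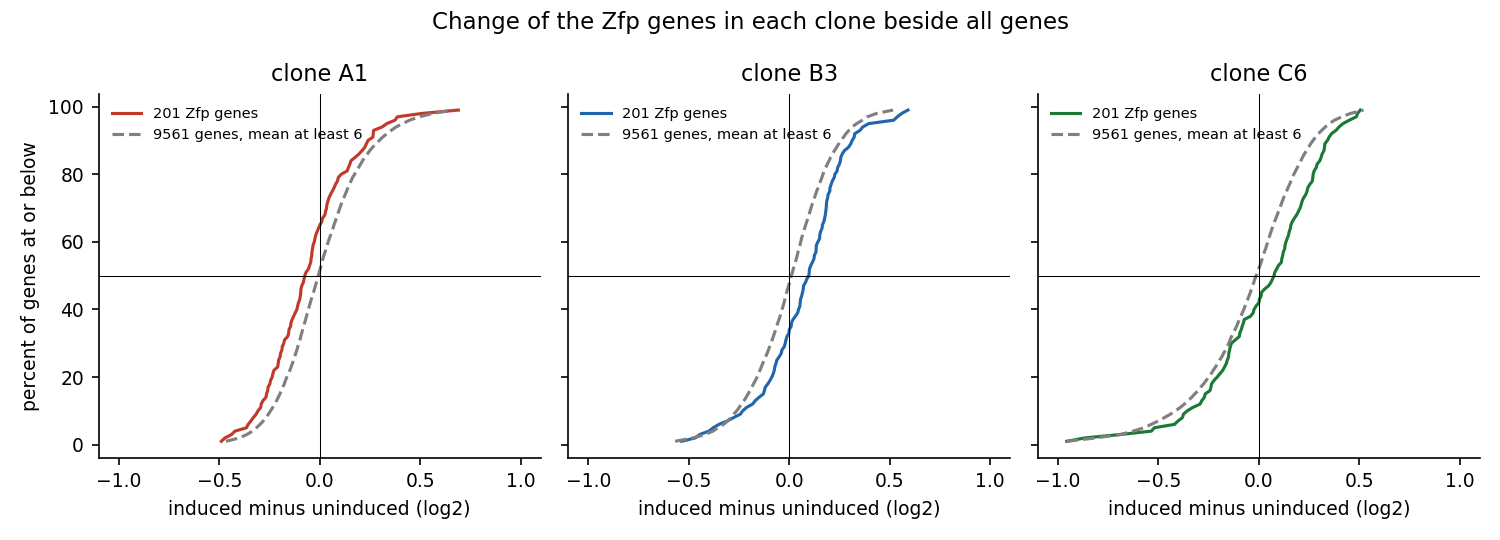
Percent of genes at or below each value of the induced minus uninduced change (log2), from the 1st to the 99th percentile, for the 201 Zfp genes (solid) and the 9561 expressed genes (dashed) in each clone. The Zfp curve crosses 50% at -0.07, 0.10 and 0.08 in the panels of A1, B3 and C6, while the dashed curve crosses near 0 in every panel.

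The test of A1 against the mean of B3 and C6 asks whether the response of a gene differed between clones. Over all probe sets, 1.71% had a change in A1 that was higher and 0.999% one that was lower. Among the Zfp genes 5 were higher (2.49%, beside 3.54% of the expressed genes) and 5 were lower (2.49%, beside 1%). The higher ones were Zfp395, Zfp580, Zfp668, Zfp428 and Zfp423, and the lower ones Zfp53, Zfp267, Zfp622, Zfp647 and Zfp799. Since A1 was singled out with its behaviour known, and the group of 1 clone has no spread of its own, the call assumes that A1 varies as B3 and C6 do. The count of 10 lay between 6 and 45 under other settings of the fit.

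The called genes fall into 2 groups by the sign of the difference that called them, and promoters from both groups are shown. For the 3 with the largest difference in each direction among those in the RefSeq promoter table used here, which leaves out Zfp395 and Zfp647, the 250 bases before the first listed start follow, in GRCm38.p6, 5′ to 3′ along the gene, with CG pairs in capitals.
Zfp580, chr7:5051282-5051531, plus strand: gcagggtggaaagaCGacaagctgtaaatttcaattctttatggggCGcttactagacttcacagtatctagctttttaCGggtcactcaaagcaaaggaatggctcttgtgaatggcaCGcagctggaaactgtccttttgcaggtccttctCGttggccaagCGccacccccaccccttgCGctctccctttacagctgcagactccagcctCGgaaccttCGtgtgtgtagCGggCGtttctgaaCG
Zfp668, chr7:127876837-127877086, minus strand: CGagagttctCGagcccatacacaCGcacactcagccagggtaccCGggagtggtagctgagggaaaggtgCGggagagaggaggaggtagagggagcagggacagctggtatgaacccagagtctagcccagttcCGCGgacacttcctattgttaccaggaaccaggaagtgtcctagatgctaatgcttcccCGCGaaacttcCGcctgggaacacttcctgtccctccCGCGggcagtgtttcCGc
Zfp428, chr7:24506837-24507086, plus strand: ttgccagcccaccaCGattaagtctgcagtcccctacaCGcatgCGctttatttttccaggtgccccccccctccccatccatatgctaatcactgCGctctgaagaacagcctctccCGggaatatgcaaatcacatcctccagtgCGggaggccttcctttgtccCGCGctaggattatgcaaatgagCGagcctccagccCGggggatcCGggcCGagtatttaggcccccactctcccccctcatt
Zfp53, chr17:21488738-21488987, plus strand: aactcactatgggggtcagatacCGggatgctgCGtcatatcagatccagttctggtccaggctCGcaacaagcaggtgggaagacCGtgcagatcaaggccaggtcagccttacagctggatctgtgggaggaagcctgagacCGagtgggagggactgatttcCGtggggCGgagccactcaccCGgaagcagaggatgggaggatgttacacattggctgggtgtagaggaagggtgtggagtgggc
Zfp267, chr3:36150830-36151079, plus strand: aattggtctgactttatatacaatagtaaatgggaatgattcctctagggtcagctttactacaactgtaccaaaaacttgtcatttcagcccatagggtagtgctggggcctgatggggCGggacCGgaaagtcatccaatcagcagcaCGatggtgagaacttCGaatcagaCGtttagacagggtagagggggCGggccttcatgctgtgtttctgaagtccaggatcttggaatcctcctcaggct
Zfp622, chr15:25984116-25984365, plus strand: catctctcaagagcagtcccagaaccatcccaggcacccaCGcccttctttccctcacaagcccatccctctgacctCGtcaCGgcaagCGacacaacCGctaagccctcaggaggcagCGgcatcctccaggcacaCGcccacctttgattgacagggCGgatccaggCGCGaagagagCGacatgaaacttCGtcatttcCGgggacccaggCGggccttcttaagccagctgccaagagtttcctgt
The first 3 belong to genes whose change was higher in A1 and the last 3 to genes whose change was lower. They hold 12, 13 and 12 CG pairs in the first group and 8, 6 and 14 in the second, with GC contents of 52.4%, 59.2% and 58% and of 58.4%, 48.4% and 60%. The letters searched on both strands were the GC box GGGCGG, the CCAAT box, the TATA box TATAAA and the E-box CACGTG. The first 3 hold none of them. Zfp53 holds 1 GGGCGG and 1 CCAAT, Zfp267 holds 2 GGGCGG, 2 CCAAT and 1 TATAAA, and Zfp622 holds 1 GGGCGG. Of all promoters of this length in the table, 32.7% hold GGGCGG, 33.8% CCAAT, 12.4% TATAAA and 6.02% CACGTG. Among the Zfp genes with a promoter these shares were 46.9%, 48.1%, 7.41% and 6.79%. Single matches are therefore common, and a match is not a bound site. With the promoters of Zfp423 and Zfp799, which are not printed, the GC box was present in 1 of 4 genes called higher and 3 of 4 called lower, CCAAT in 0 and 3 and TATAAA in 0 and 2. The ranges overlapped, with 12 to 18 and 3 to 14 CG pairs and GC contents of 52.4% to 71.6% and 46% to 60%.

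On the brightest probe sets, the gene with the widest split was Zfp395, a DNA-binding factor. It went from 6.02 to 6.84 in A1, from 6.79 to 6.10 in B3 and from 6.51 to 5.04 in C6. The mean of its induced arrays alone lay under 6, so Zfp395 is a member through its higher arrays. Its induced array of C6 was the lowest of the 6, and the change in A1 exceeded that in B3 and C6 by 1.90 ± 0.29 (SE; limma, adjusted p = 0.0142). Zfp580, from 6.68 to 7.41 in A1, from 7.51 to 6.98 in B3 and from 7.19 to 6.33 in C6, differed by 1.43 ± 0.21 (SE; limma, adjusted p = 0.0121). In both genes the uninduced array of A1 lay below those of B3 and C6, and its induced array lay above theirs.

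Zfp668, whose human counterpart acts in the DNA damage response, went from 6.61 to 7.30 in A1, from 7.23 to 6.95 in B3 and from 7.66 to 6.70 in C6. Zfp428, one of the 8 brightest, went from 10.23 to 10.74, from 10.42 to 10.04 and from 10.62 to 9.69. Their differences were 1.31 ± 0.27 (SE; limma, adjusted p = 0.0390) and 1.16 ± 0.24 (SE; limma, adjusted p = 0.0411). B3 changed less than C6 in both. Zfp423, a many-fingered partner of SMAD proteins in BMP signalling, went from 8.94 to 9.45 in A1, from 8.82 to 8.29 in B3 and from 8.97 to 8.29 in C6, a difference of 1.12 ± 0.19 (SE; limma, adjusted p = 0.0201). Its uninduced arrays lay close together, and its induced array of A1 stood apart from those of B3 and C6.

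In the opposite direction, Zfp53, a KRAB zinc finger gene, went from 6.67 to 6.06 in A1, from 5.87 to 6.41 in B3 and from 6.17 to 6.82 in C6, a difference of -1.20 ± 0.19 (SE; limma, adjusted p = 0.0153). The uninduced array of A1 was second only to the induced array of C6. Zfp267 went from 7.95 to 7.39, from 7.47 to 8.01 and from 7.62 to 8.02 in A1, B3 and C6, a difference of -1.02 ± 0.19 (SE; limma, adjusted p = 0.0270). Its other bright probe set, with a mean of 6.62, showed almost no difference (-0.03; limma, adjusted p = 0.961).

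Zfp622, with the values given above, differed by -0.99 ± 0.18 (SE; limma, adjusted p = 0.0281). Its 3 arrays on the high side lay between 12.10 and 12.16 and the 3 on the low side between 11.61 and 11.67, with nothing between them. Of its other probe sets, a second x probe set (mean 7.80) differed by -0.77 (limma, adjusted p = 0.0665) and a plain one (mean 9.12) by -0.21 (limma, adjusted p = 0.650). Zfp647, a KRAB factor that binds TRIM28, went from 8.81 to 8.46 in A1, from 7.61 to 8.23 in B3 and from 8.05 to 8.64 in C6, and Zfp799 from 8.60 to 8.23, from 8.23 to 8.74 and from 8.29 to 8.78. They differed by -0.96 ± 0.18 (SE; limma, adjusted p = 0.0310) and -0.87 ± 0.18 (SE; limma, adjusted p = 0.0436).

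**Figure D3:**
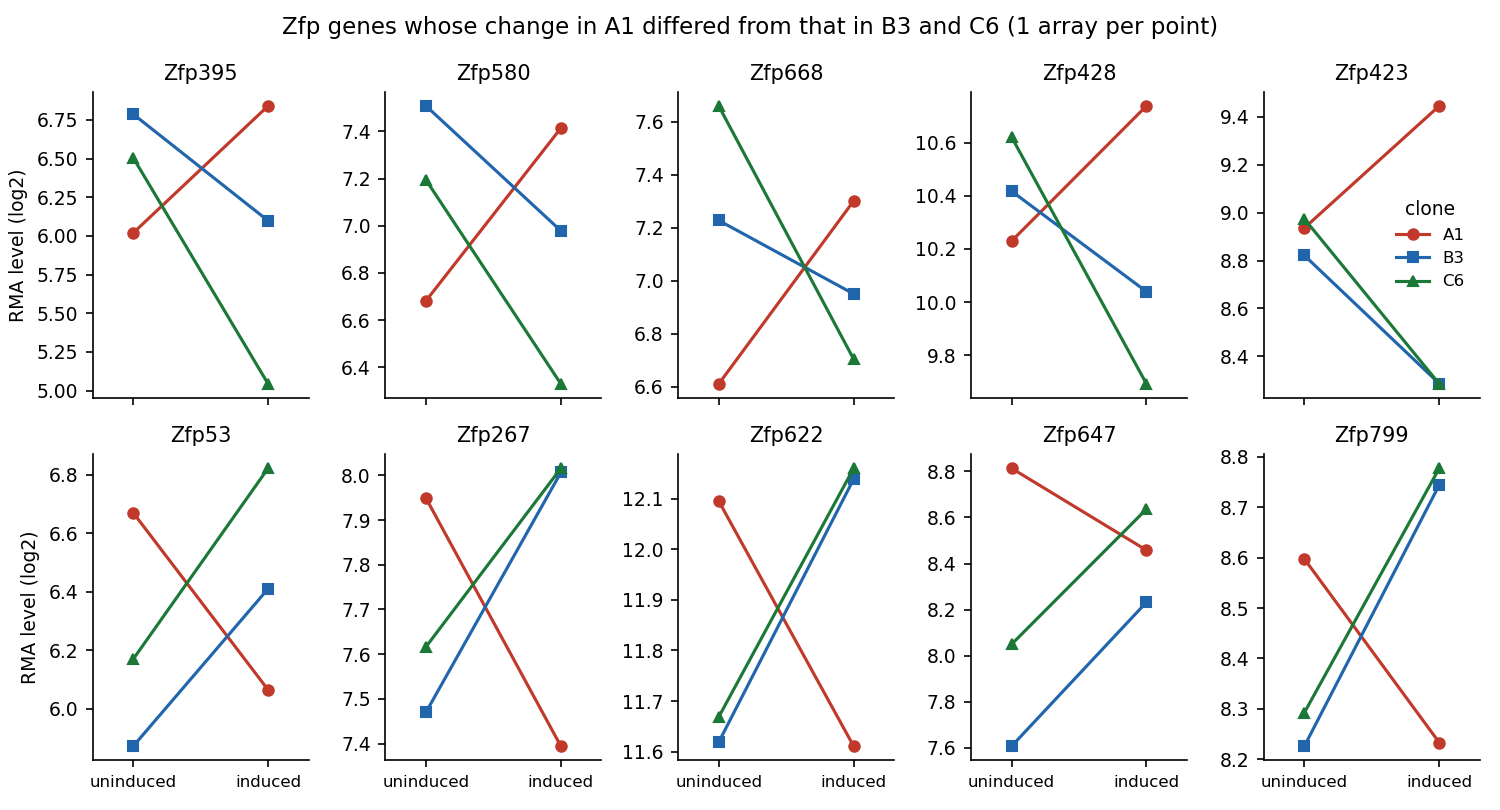
RMA level (log2) of the 10 Zfp genes whose change in A1 differed from that in B3 and C6, 1 array per point, with a line joining the uninduced and the induced array of each clone (A1 circles, B3 squares, C6 triangles; each panel has its own axis). The A1 line rises and the other lines fall in the upper panels, and the reverse holds in the lower panels.

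Other probe sets of the same genes bear on the single probe set that stands for each. The list of 10 called genes holds for the brightest probe sets. Further probe sets of genes outside it also passed the limma test of A1, some higher and some lower. At a mean of at least 6, the higher ones were of Zfp142, Zfp444, Zfp574, Zfp710 and Zfp787. The lower ones were of Zfp644, Zfp871 and Zfp91, so the list depends on the probe set chosen. Among them, a probe set of Zfp574 (mean 6.77) differed by 1.97 and a probe set of Zfp644 (mean 7.51) by -1.05. Of 73 further probe sets at or above the minimum of 6, in 49 Zfp genes, 49 (67.1%) had the sign of the brightest in the difference between A1 and the other clones. For the 10 called genes there were 3 such probe sets, those of Zfp267 and Zfp622 above, and all 3 had the same sign while 0 passed the limma test and 1 had an unadjusted p under 0.05.

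**Figure D4:**
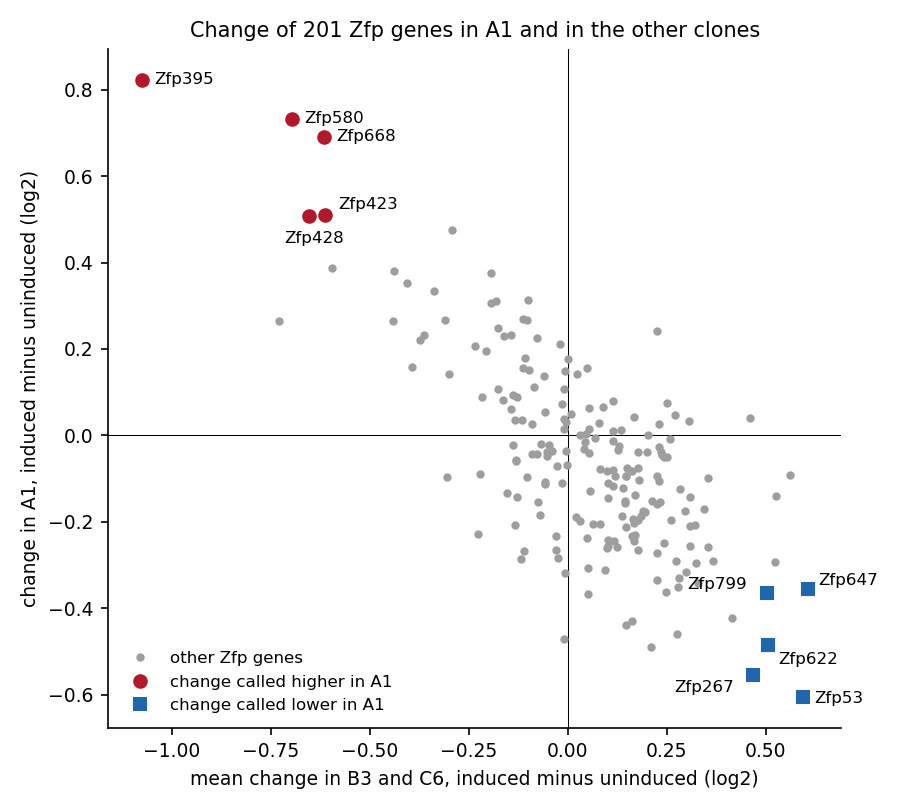
Induced minus uninduced change (log2) of each of the 201 Zfp genes in A1 against the mean of its changes in B3 and C6, with the 5 genes called higher in A1 as circles and the 5 called lower as squares. The points run from upper left to lower right, and the lower right part is fuller, where A1 went down and the mean of B3 and C6 went up.

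Within B3 and C6, with the clone as a block, 7 Zfp genes rose on induction (3.48%, where 0.87% of all probe sets and 0.732% of the expressed genes did) and 4 fell (1.99%, where 1.31% and 2.35% did). This test uses the same arrays of B3 and C6 as the one before, so these tests are not independent, and 8 genes passed both. Zfp647 rose by 0.61 ± 0.11 (SE, n = 2 clones; limma, adjusted p = 0.0266) and Zfp53 by 0.60 ± 0.11 (SE; limma, adjusted p = 0.0290), while Zfp622 and Zfp799 rose by 0.51 and 0.50 (limma, adjusted p = 0.0473 and 0.0475). In both clone tests the SE of limma draws on the spread of all probe sets, so it is not the gene's own spread between B3 and C6. Zfp395 fell by 1.08, Zfp580 fell by 0.70, Zfp428 fell by 0.65 and Zfp423 fell by 0.61 on the log2 scale (limma, adjusted p = 0.0174, 0.0248, 0.0491 and 0.0277). Both clones moved the same way in each of them. As said above, Zfp395 is a member through its higher arrays.

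The genes that passed here and not in the test of A1 were Zfp810, Zfp934 and Zfp367. Zfp810 went from 5.74 to 6.42 in B3 and from 5.98 to 6.43 in C6, and was 6.67 and 6.58 in A1, a rise of 0.56 ± 0.11 in B3 and C6 (SE; limma, adjusted p = 0.0406). Zfp934 went from 7.54 to 8.10 and from 7.42 to 7.91, with 7.40 and 7.26 in A1, a rise of 0.53 ± 0.11 (SE; limma, adjusted p = 0.0430). Zfp367 went from 6.85 to 7.40 and from 6.86 to 7.36, with 7.53 and 7.23 in A1, a rise of 0.52 ± 0.11 (SE; limma, adjusted p = 0.0431). In these 3 genes A1 changed by -0.09, -0.14 and -0.29, and the difference of A1 from the others missed the threshold (limma, adjusted p = 0.118, 0.0967 and 0.0525). Without the clone as a block, 0 of the 201 genes passed within B3 and C6.

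Between clones, beside the state, 1 Zfp gene differed in level (0.498%, where 1.13% of all probe sets and 2.37% of the expressed genes did). Zfp560 was 7.74 and 7.59 in A1, 6.82 and 6.88 in B3 and 7.77 and 7.57 in C6 (limma F test, adjusted p = 0.0467). Both arrays of B3 lay below all others. It changed by -0.15, 0.05 and -0.21 on induction, and the call was lost with quantile normalization, with a trended robust variance and when dim probe sets were left out.

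Ordered by role, most Zfp proteins passed no test, and at an unadjusted p under 0.05 none of the listed ones differed between induced and uninduced arrays in limma or in the methods' t-test. Of 12 listed proteins of RNA handling, ribosomes and splicing 10 were among the Zfp genes kept here. In this and the following lists, a gene could also be missing through the naming rule or by being left out by name, whatever its level. The median changes of the 10 were -0.09, 0.06 and 0.10 in A1, B3 and C6. Zfp622 passed both clone tests and the other 9 passed none. Zfp593, a ribosome assembly factor like Zfp622, had changes of -0.32, 0.31 and 0.29, and Zfp598, a ubiquitin ligase that senses collided ribosomes, had the opposite ones, 0.33, -0.27 and -0.40 (A1 against B3 and C6: limma, adjusted p = 0.119 and 0.0972). Zfp638, an RNA-binding protein that also silences retroviral DNA, had -0.14, 0.18 and 0.16, and Zfp346, which binds double-stranded RNA, 0.07, 0.19 and 0.31. Other probe sets above the minimum differed for Zfp593 (mean 7.13), with 0.09, 0.17 and -0.16, and for Zfp346 (mean 6.79), with 0.26, -0.38 and -0.03. That of Zfp638 (mean 7.92) kept its signs, with -0.26, 0.03 and 0.07.

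Of 12 listed Zfp repressors of retroelements or imprinted genes 9 were among the genes kept. None passed a limma test, and 3 in the test of A1 and 4 within B3 and C6 had an unadjusted p under 0.05. Among the 10 genes of RNA handling, ribosomes and splicing, 3 and 5 did. Among the 17 factors without a KRAB box described below, 5 and 4 did. The median changes of the 9 repressors were -0.03, 0.16 and 0.21. Zfp809, which binds the primer site of murine leukemia virus, averaged 9.41 and changed by -0.14, 0.20 and 0.42. Zfp932 averaged 8.55, with changes of -0.17, 0.36 and 0.33, and Zfp37 averaged 7.07, with changes of -0.34, 0.30 and 0.36 (A1 against B3 and C6: limma, adjusted p = 0.188 and 0.0937). In 5 of the 9 genes A1 went down while B3 and C6 went up, and in 0 the reverse, beside 41.3% and 16.9% of all 201 Zfp genes. The same counts were 4 and 2 among the 10 genes of RNA handling, ribosomes and splicing. They were 4 and 4 among the 17 factors without a KRAB box.

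Of 25 listed transcription and self-renewal factors without a KRAB box 17 were among the genes kept, with median changes of 0.01, 0.15 and -0.10. A listed factor that was not kept may still be expressed. Zfp423 passed both clone tests. Zfp219 had changes of the same signs as Zfp423, 0.38, -0.36 and -0.52 (A1 against B3 and C6: limma, adjusted p = 0.0575), and Zfp148 the reverse, -0.49, 0.18 and 0.23 (limma, adjusted p = 0.0845). Zfp462, a chromatin factor of ES cells, changed by 0.07, 0.05 and 0.13, and Zfp296 by -0.02, -0.02 and -0.12.

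The partners through which KRAB factors repress were measured too, by 21 of 22 listed genes. None passed the comparison of induced with uninduced arrays (limma, 0 at an unadjusted p under 0.05). Trim28, the corepressor that KRAB boxes bind, lay between 13.17 and 13.32 in all 6 arrays and changed by 0.03, 0.03 and -0.09. Setdb1 changed by 0.11, -0.02 and -0.20. Of the 21 partners, 19 averaged at least 6. A1 went up while B3 and C6 went down in 8 of the 21, where 30% of the expressed genes did. The reverse held in 4, where it held in 30.8% of the expressed genes. Morc3 changed by -0.26, 0.16 and 0.26, Hdac1 by -0.16, 0.19 and 0.11 and Hdac2 by -0.17, 0.02 and -0.01. Dnmt1, the maintenance DNA methyltransferase, was the 1 partner that passed a clone test: it went from 10.13 to 10.62 in A1, from 10.44 to 9.97 in B3 and from 10.62 to 9.98 in C6, a difference of 1.04 ± 0.19 (SE; limma, adjusted p = 0.0270), and it fell by 0.55 within B3 and C6 (limma, adjusted p = 0.0407). Chd4 and Mbd3 of the NuRD complex had changes of 0.41, -0.29 and -0.45 and of 0.28, -0.33 and -0.68 (A1 against B3 and C6: limma, adjusted p = 0.0652 and 0.0880).

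Many Zfp genes lie in rows on a chromosome, so position was set beside the changes. In the RefSeq order of protein-coding genes, 114 of the 201 stood in a run of at least 2 Zfp genes, and 87 stood alone. Neighbours within a run were at most 2 places apart in that order. Genes of a run had median changes of -0.09, 0.10 and 0.09, and genes alone -0.04, 0.07 and 0.01. A1 went down while B3 and C6 went up in 44.7% of the genes in runs and 36.8% of those alone, and the reverse held in 11.4% and 24.1%. In the 46 genes in runs of at least 5 these shares were 34.8% and 10.9%, so the first did not grow with the length of the run. Neighbouring Zfp genes can share sequence that probes bind, and runs were not tested.

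The 3 runs with the most expressed genes differed. The run of Zfp229, Zfp760, Zfp51, Zfp820, Zfp995, Zfp948, Zfp53 and Zfp942 had median changes of -0.18, 0.23 and 0.33, and 7 of its 8 genes were higher after induction in B3 and 7 in C6, against 3 in A1. Zfp51 changed by -0.21, 0.40 and 0.24 and Zfp948 by -0.26, 0.28 and 0.34, and Zfp53 was the 1 gene of the run that passed. The run of 10 genes around Zfp568 had medians of -0.10, 0.13 and 0.12, with 0 called. The run of Zfp212, Zfp777, Zfp746, Zfp398, Zfp956 and Zfp282 went the other way: 6 of 6 were higher after induction in A1, whereas 2 were in B3 and 0 in C6, with medians of 0.10, -0.01 and -0.31 and 0 called. Its widest gene was Zfp282, with changes of 0.35, -0.13 and -0.68 (A1 against B3 and C6: limma, adjusted p = 0.143).

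**Figure D5:**
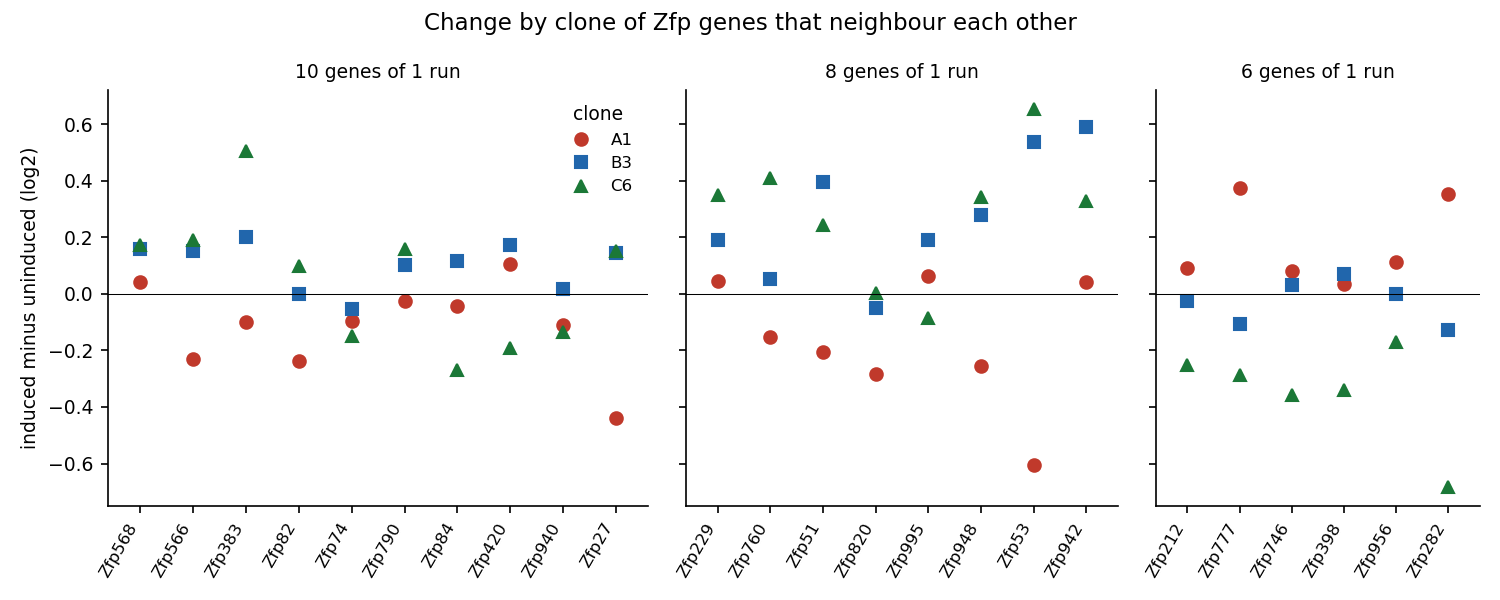
Induced minus uninduced change (log2) in each clone (A1 circles, B3 squares, C6 triangles) of the expressed Zfp genes in the 3 runs with most of them, each run ordered by mean level. A1 lies at or near the bottom for most genes of the first and second run and at the top for 5 of the 6 genes of the third.

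The promoters available for 162 of the 201 genes were lower in GC than those of other expressed genes. The median over the 250 bases before the start was 54.6% GC with 12 CG pairs, against 60.4% and 17 over the 7830 expressed genes that had one. GGGCGG was present in 46.9% of the Zfp promoters and 62.4% of those of the 7830 genes, CCAAT in 48.1% and 37%, TATAAA in 7.41% and 5.67%, and CACGTG in 6.79% and 8.94%. In the 81 Zfp genes with GC at or below their median, 54.3% went down in A1 and up in B3 and C6 and 8.64% did the reverse. In the 81 above it these shares were 30.9% and 27.2%. Promoter GC and the change correlated across the 162 Zfp genes at r = 0.24, -0.12 and -0.24 in A1, B3 and C6, and across all 7830 genes at 0.08, -0.05 and -0.08, as descriptions across genes that share the same arrays and a base composition along each chromosome.

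Brightness went with the pattern only loosely. A1 moved against both other clones in 66.2% of the 71 Zfp genes at 8 or more, in 55.9% of the 59 between 7 and 8 and in 52.1% of the 71 under 7. The median changes of the brightest class were -0.04, 0.13 and 0.11 and those of the dimmest -0.09, 0.07 and 0.05 in A1, B3 and C6.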

How the data were processed

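RNA of 6 mouse ES cell samples was measured on Affymetrix whole-genome arrays. The deposited values were log2 levels per probe set from the authors' robust multiarray average (affy and RMA in the submitters' processing notes, versions not given in the sources used here), used as they stood. Of 45101 probe sets, 64 controls were left out. Of the 45037 tested, 34945 had 1 gene symbol, 932 several and 9160 none listed here, and 34741 were found in RefSeq (GRCm38.p6).

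Tests used limma 3.58.1 in R 4.3.3 (lmFit, eBayes, two-sided, Benjamini-Hochberg over all probe sets, threshold 0.05) in place of the methods' t-test, and were checked on simulated data. A1 was tested on 3 differences with 1 residual degree of freedom. Replicate numbers stand for clones and pair the samples: within a clone, the deviations of both arrays from the mean of their state correlated at 0.19 (A1), 0.53 (B3) and 0.31 (C6). The members, role lists and naming rule were chosen with earlier results of these data known. The rule took Zfp942, Zfp46 and Zfp53, the 8 brightest genes, up to 8 per direction called in each clone test, the 5 per direction with the smallest p among those moving alike in all clones, and the role lists. Other single genes and the runs were picked after their values were seen. Protein features were not analysed here. The number of arrays limits the precision.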

Additional observations from a re-analysis of the deposited data

Results flagged for a closer look

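In 10 Zfp genes the induced minus uninduced change differed between clones, by the limma test of A1 against the mean of B3 and C6. The change was higher in A1 in Zfp395 (by 1.90 on the log2 scale), Zfp580 (1.43), Zfp668 (1.31), Zfp428 (1.16) and Zfp423 (1.12). It was lower in A1 in Zfp53 (-1.20), Zfp267 (-1.02), Zfp622 (-0.99), Zfp647 (-0.96) and Zfp799 (-0.87). In all 10 genes both B3 and C6 moved opposite to A1. The cause of the opposite movement was not tested, and a clone response and an exchange of the arrays of A1 cannot be told apart here.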

How the results depend on the processing

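Comparing induced with uninduced arrays, 0 Zfp genes passed under the clone as a replicate block, the methods' t-test, another variance model, array weights, quantile normalization, other filters, other minimum means and an adjusted p under 0.1, and leaving out each array or clone gave from 0 to 0. Leaving out A1 together with the replicate block gave 11. In the test of A1 against B3 and C6, the count of 10 was 6 with a trended robust variance, 31 when probe sets averaging under 6 were left out, 45 on the mean of a gene's probe sets and 20 at an adjusted p under 0.1. Within B3 and C6, the count of 11 became 22, 20, 36 and 17 under these settings, 5 on the brightest probe set of each gene alone and 0 with no replicate block. Between clones, the count of 1 became 0 with a trended robust variance, with quantile normalization and without the dim probe sets, and it became 5 with the brightest probe set of each gene alone, 6 at an adjusted p under 0.1 and 2 with a minimum mean of 5. The cause of these moves was not tested beyond the number of probe sets adjusted over. The median changes per clone kept their sign, from -0.08 to -0.06 in A1, from 0.08 to 0.12 in B3 and from 0.07 to 0.11 in C6, under quantile normalization, minimum means of 5 and 7 and the mean of a gene's probe sets. No value past the threshold changed its sign. Among named genes that passed neither before nor after, 13 values in the comparison of induced with uninduced arrays (Zfp53, Zfp106, Zfp207, Zfp428 and Zfp936) and 3 in the test of A1 (Zfp46 and Zfp207) did change sign, among them Zfp53 from 0.20 to -0.03 and Zfp428 from -0.27 to 0.07 without C6. Among single named genes, 7 values of the A1 test and 18 of the test within B3 and C6 lost the threshold under an alternative, among them Zfp395 (trended robust variance, limma, adjusted p = 0.0958) and Zfp668 (brightest probe set alone, limma, adjusted p = 0.0503). Leaving out a further array in either clone test leaves no residual degrees of freedom, so no value was given. With 3 arrays a group the 95% interval of a change reached a median of 0.34 to either side, which limits what could be seen.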
